A study of Mus musculus with 24 samples.

Results

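Motile cilia axoneme genes, the genes for the dynein arms, radial spokes, central pair and associated proteins of beating cilia and sperm flagella, were described in each library of a mouse visceral fat series. They were the genes of the count table whose symbol begins with Dnah, Dnai, Cfap or Rsph and a number, or is Dnali1, plus Foxj1, Ttc25, Ccdc39, Ccdc40 and Spag6l, with at least 10 counts in 2 or more of the 24 libraries. Of 61 genes with such a symbol, 59 met the count minimum, out of 27179 genes in the table. The 2 outside it were Cfap97d1, which reached 45 counts in control male replicate 1, and Cfap47, which reached 19 counts in Pparg knockout male replicate 4, each in 1 library only. Just inside it were Rsph6a, with 10 counts or more in 3 libraries, and Cfap61, with as many in 5. No gene of the table with a Dnai symbol entered.

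RNA came from whole visceral, perigonadal fat of mice aged 27 to 33 weeks, in 6 groups of 4 libraries. All groups carried a Foxp3 Cre, which acts in regulatory T cells. Control females and control males carried that Cre alone. Pparg knockout females and males carried it with a conditional deletion of Pparg. Tbet knockout females and males carried it with a conditional deletion of Tbx21, the gene of T-bet. Because the Cre acts in regulatory T cells, neither gene was targeted in the other cells of the tissue. Each group held 2 libraries of batch 1 (replicates 1 and 3) and 2 of batch 2 (replicates 2 and 4), as the titles number them. The source name of control female replicate 1 places it in batch 2. The labels do not say whether each library is another animal, and p-values then cover only the spread seen among these libraries, which may be technical.

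A motile cilium beats because dynein arms on its outer microtubule doublets slide neighbouring doublets past each other, while radial spokes and the central pair of microtubules regulate the stroke. Foxj1 is the transcription factor that switches on this gene programme in multiciliated cells, and RFX factors bind X-box motifs in the promoters of many of the same genes. Multiciliated cells line the oviduct, the efferent ducts between testis and epididymis, the airways and the brain ventricles, and sperm build a flagellum on the same plan, in part with sperm forms of the same proteins. Adipocytes and the other usual cells of fat carry no motile cilia. Perigonadal fat lies against the reproductive tract.

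RefSeq promoter windows of build GRCm38.p6, from 250 bases before to 50 after a gene's start, were matched to 46 of the 59 genes. The windows were searched on both strands for the spaced pair of the X-box, GTNNC and GNNAC with 4 bases between them, in which N is any base. It was found for 15 of the 46 genes (32.6%), against 8.13% of the 27025 genes with a window of this length. The single arm GTTGCC, which can overlap the pair, was found for 16 of the 46 (34.8%), against 14.1% of all genes. The forkhead letters GTAAACA were found for 3 of the 46 (6.52%), against 4.05%. A match of letters is a description of the window, not a binding site. The 8 stretches of 100 bases below show the genes, among those not broadly expressed, whose spaced pair lies wholly before the start, since most of these genes were high in the same libraries. They run 5′ to 3′ on the gene's strand, and capitals mark the spaced pair and any GTTGCC.
Cfap126 (chr1:171122920-171123019, plus strand): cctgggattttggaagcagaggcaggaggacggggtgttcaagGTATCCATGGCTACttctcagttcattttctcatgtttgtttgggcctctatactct
Cfap206 (chr4:34730207-34730306, minus strand): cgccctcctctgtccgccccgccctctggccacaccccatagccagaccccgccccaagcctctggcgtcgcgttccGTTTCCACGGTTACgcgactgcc
Cfap44 (chr16:44394699-44394798, plus strand): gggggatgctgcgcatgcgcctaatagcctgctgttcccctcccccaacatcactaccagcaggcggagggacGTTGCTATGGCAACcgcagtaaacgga
Cfap45 (chr1:172521030-172521129, plus strand): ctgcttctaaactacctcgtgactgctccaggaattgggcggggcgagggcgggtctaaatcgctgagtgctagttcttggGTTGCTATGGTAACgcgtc
Cfap77 (chr2:29055217-29055316, minus strand): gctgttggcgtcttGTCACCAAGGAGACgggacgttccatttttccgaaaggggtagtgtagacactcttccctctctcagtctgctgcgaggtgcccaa
Dnah17 (chr11:118129322-118129421, minus strand): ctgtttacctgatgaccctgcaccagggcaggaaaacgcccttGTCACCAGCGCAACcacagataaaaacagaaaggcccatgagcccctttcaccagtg
Dnah2 (chr11:69549138-69549237, minus strand): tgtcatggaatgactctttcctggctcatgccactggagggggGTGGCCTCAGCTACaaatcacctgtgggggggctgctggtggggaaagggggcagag
Spag6l (chr16:16829462-16829561, minus strand): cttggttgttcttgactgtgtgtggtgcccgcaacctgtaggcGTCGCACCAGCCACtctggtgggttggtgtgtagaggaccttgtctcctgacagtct
The pair lies 27 to 14 bases before the start in Cfap44, 19 to 6 before it in Cfap45 and 23 to 10 before it in Cfap206. In the other 5 stretches it lies farther upstream, at 82 to 69 bases in Cfap126 and as far as 236 to 223 bases in Cfap77.

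Levels are CPM, counts relative to the library total after TMM scaling (trimmed mean of M values). A count of 0 allows a level of up to 0.0947 to 0.349 CPM, depending on the library, for counting error alone. Across the series 6 of the 59 genes stood at 10 CPM or more in all 24 libraries. These broadly expressed genes were Cfap20, Cfap36, Cfap97, Cfap298, Rsph3a and Rsph3b. The other 53 fell below 10 CPM in at least 1 library, and their summed level separated the libraries widely. In control female replicate 1 the sum was 2305 CPM. In the other 11 females it lay between 60.3 and 104 CPM, with a median of 73.1 CPM. Control female replicate 1 was thus 29.7 times the mean of the other 11 females.

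In males the sum was 148, 878, 52.7 and 423 CPM in control replicates 1 to 4. It was 272, 54.3, 92.8 and 1037 CPM in Pparg knockout replicates 1 to 4 and 275, 699, 45.7 and 496 CPM in Tbet knockout replicates 1 to 4. High and low libraries thus occurred in all 3 male groups, and the groups overlapped. The sum of the 6 broadly expressed genes was between 151 and 197 CPM in the 23 libraries other than control female replicate 1, where it was 267 CPM.

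**Figure D1:**
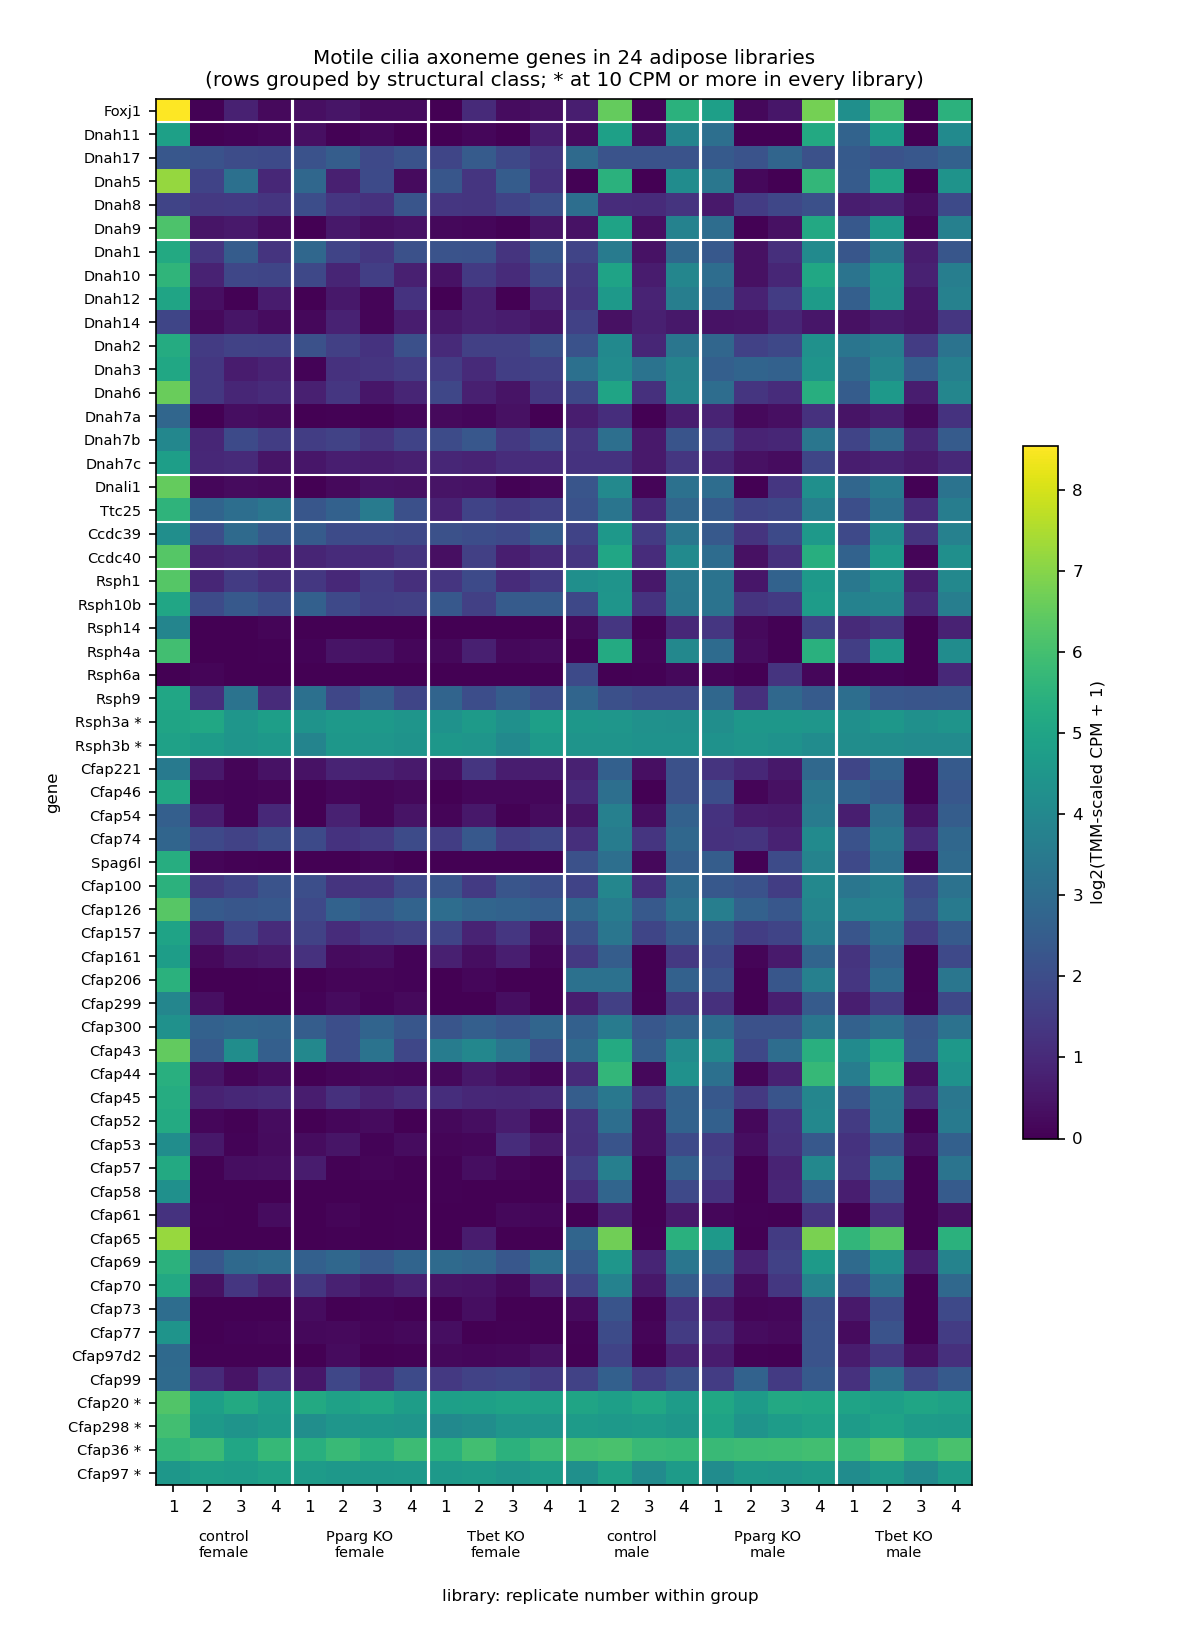
Level of each of the 59 axoneme genes (rows, by structural class) in each of the 24 libraries (columns, replicates 1 to 4 of 6 groups), as log2 of TMM-scaled CPM plus 1. Control female replicate 1 is bright in most rows, 7 male libraries are intermediate, and the 6 genes with an asterisk are at 10 CPM or more in every column.

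**Figure D2:**
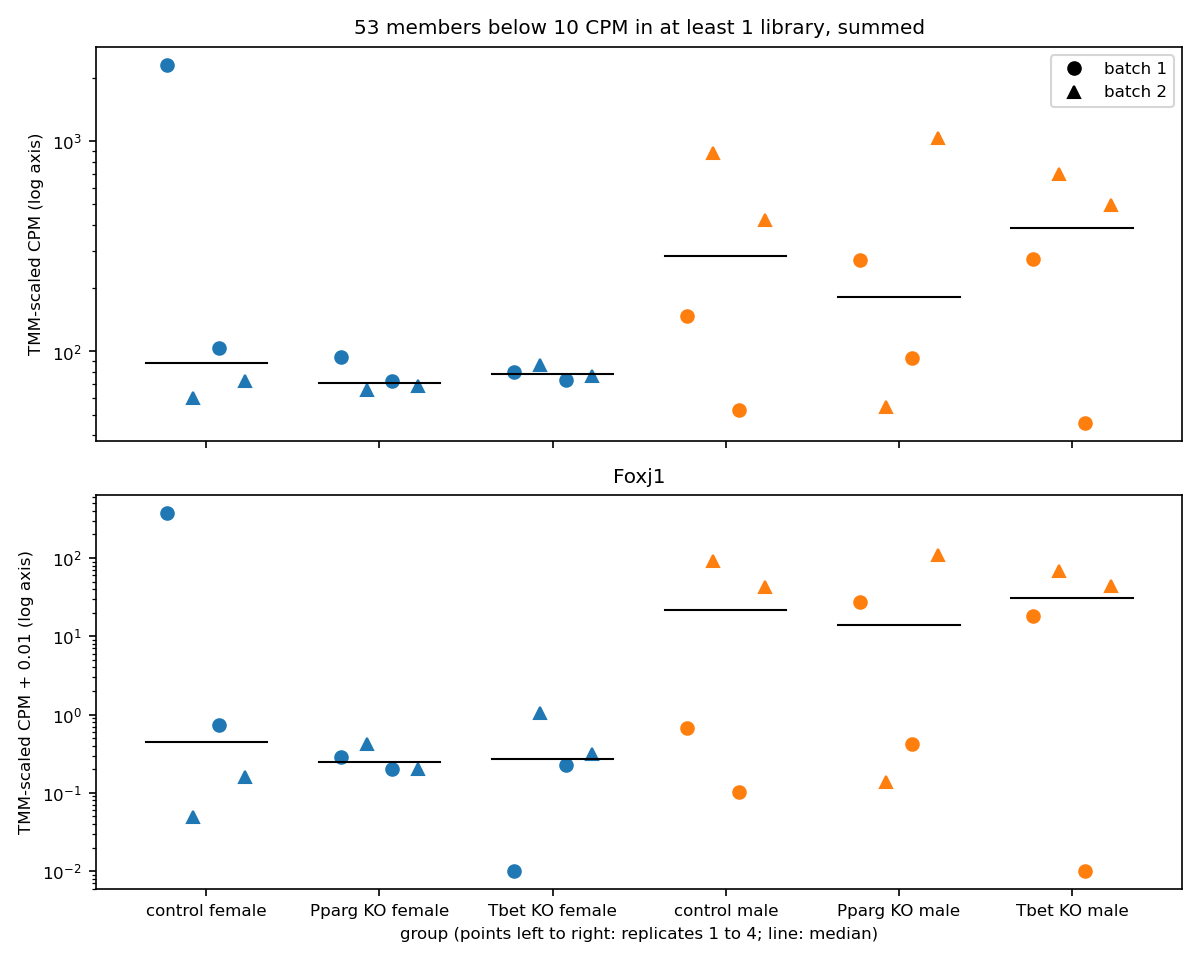
Summed level of 53 axoneme genes (top) and level of Foxj1 (bottom) in TMM-scaled CPM on log axes, 1 point per library, circles for batch 1 and triangles for batch 2, with the group median as a line. In females 1 library lies at 2305 CPM and the other 11 between 60.3 and 104 CPM, while control males spread from 52.7 to 878 CPM, Pparg knockout males from 54.3 to 1037 CPM and Tbet knockout males from 45.7 to 699 CPM.

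Foxj1 (chromosome 11, 116330704 to 116335499, GRCm38) fell into high and low libraries. In control females it was 375, 0.0396, 0.724 and 0.15 CPM in replicates 1 to 4. In Pparg knockout females it lay between 0.191 and 0.413 CPM and in Tbet knockout females between 0 and 1.05 CPM. Control female replicate 1 stood apart from the other 11 females, which held at most 1.05 CPM of this regulator. In control males it was 0.662, 91.5, 0.0934 and 42.9 CPM. In Pparg knockout males it was 27.7, 0.126, 0.417 and 108 CPM, and in Tbet knockout males 18, 69, 0 and 43.8 CPM. In all, 7 male libraries were therefore at 18 CPM or more and 5 were below 0.7 CPM, with none between.

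The outer dynein arm heavy chains, the motors that power the beat, split into ciliary and sperm forms. Dnah5, the main ciliary outer arm motor, was 146, 2.26, 7.93 and 0.94 CPM in control females and at most 6.25 CPM in the knockout females. In males it was 0.0473, 43, 0 and 16.8 CPM in controls, 9.41, 0.126, 0 and 50.2 CPM in Pparg knockouts and 4.47, 30.6, 0 and 19.9 CPM in Tbet knockouts. It was high in the 7 male libraries with high Foxj1 and near 0 in the other 5. Dnah9, the outer arm motor of the distal cilium, was 71 CPM in control female replicate 1 and at most 0.503 CPM in the other females. In those 7 male libraries it ranged from 4.11 to 34.7 CPM. Dnah11, the outer arm motor of the proximal cilium, was 28.3 CPM in control female replicate 1, but reached 35.6 CPM in Pparg knockout male replicate 4. Dnah8 and Dnah17, the outer arm motors of sperm, showed another pattern. Dnah17 was 3.99 CPM in control female replicate 1 and up to 4.81 CPM in the other females. Dnah8 was 2.37 CPM there and up to 3.79 CPM in the other females, so neither stood out in that library.

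All 10 inner arm heavy chains, which shape the bend, were highest among females in control female replicate 1. Dnah6 was 95.9 CPM there and at most 2.52 CPM in the other females. Dnah10 was 46.9 against at most 2.64 CPM, and Dnah3 was 33.6 against at most 2.12 CPM. In males Dnah6 ranged from 4.57 to 40.3 CPM in the 7 male libraries high in Foxj1 and from 0.614 to 2.6 CPM in the other 5. Dnah10 ranged from 7.3 to 33 CPM in those 7 and from 0.293 to 1.65 CPM in the other 5, without overlap. Dnah3 kept a level of 4.91 to 8.6 CPM in the 5 males low in Foxj1, above every female library other than control female replicate 1. Dnah7a, Dnah7b and Dnah7c are near-identical copies on chromosome 1, so reads may be split between them and their single values are uncertain.

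Dnali1, an inner arm light chain, was 90.7 CPM in control female replicate 1 and at most 0.372 CPM in the other 11 females. In males it was 3.83, 15.2, 0.0934 and 8.2 CPM in controls, 7.3, 0, 1.55 and 18.1 CPM in Pparg knockouts and 6.09, 10.3, 0.0473 and 8.63 CPM in Tbet knockouts. Ccdc39 and Ccdc40 together form the molecular ruler that sets the repeat along the doublets. Ccdc40 was 78.2 CPM in control female replicate 1 and at most 2.1 CPM in the other females, and 5.43 to 39.7 CPM in the 7 males high in Foxj1. Ccdc39 was only 17.7 CPM in that female library, below the 23.5 CPM of Pparg knockout male replicate 4 and the 22.6 CPM of control male replicate 2. Its floor was also higher, between 1.42 and 6.76 CPM in the 11 other females and the 5 males low in Foxj1. Ccdc39 overlaps Ttc14 and Ccdc40 overlaps Tbc1d16, and 16 of the 59 genes overlap another coding gene. Whether the counting used strand is not given in the sources used here, so reads of overlapping genes cannot be told apart.

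Among radial spoke genes, Rsph1, a spoke head protein, was 78 CPM in control female replicate 1 and at most 2.8 CPM in the other females. Rsph4a, a spoke head protein of cilia, was 61.1 CPM there and at most 0.7 CPM in the other females. In males Rsph4a was 0, 36.4, 0.0934 and 15.1 CPM in controls, 7.03, 0.209, 0.0379 and 41.8 CPM in Pparg knockouts and 1.98, 23.3, 0 and 16.7 CPM in Tbet knockouts. Rsph6a, its counterpart in sperm, gave the opposite picture. It was 0 CPM in control female replicate 1 and reached its highest level, 2.79 CPM, in control male replicate 1. Rsph6a was too low to be tested.

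Among central pair genes, Spag6l was 39.2 CPM in control female replicate 1 and at most 0.0956 CPM in the other females. It was 2.74 to 13.3 CPM in the 7 males high in Foxj1. Cfap46 was 34.2 CPM in control female replicate 1 and 3.1 to 9.52 CPM in those males. Cfap74 was 5.95 CPM in control female replicate 1, but 16.1 CPM in Pparg knockout male replicate 4 and 11.1 CPM in control male replicate 2. Cfap65, a protein needed for the sperm flagellum, was 148 CPM in control female replicate 1 and at most 0.583 CPM in the other females. In males it was 5.86, 102, 0.0467 and 42.1 CPM in controls, 23.9, 0, 1.82 and 114 CPM in Pparg knockouts and 48.9, 77.5, 0 and 43 CPM in Tbet knockouts.

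Of the 59 genes, 46 had their highest level of all 24 libraries in control female replicate 1. Over all 17824 genes tested, 13.1% had. Among the 12 females alone 53 of the 59 were highest there, including 50 of the 53 restricted genes, against 18.3% of all genes tested. The 3 restricted genes that were not were Dnah8, Dnah17 and Rsph6a. Of the 53, 42 reached 10 CPM in control female replicate 1, and 2 reached it in any of the other 11 females, namely Cfap43 and Ttc25. With control female replicate 1 set aside, Pparg knockout male replicate 4 was the highest library for 40 of the 59.

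Levels can be compared between genes only per length, and the deposited log2 FPKM tables give that for 56 of the 59. In control female replicate 1 Foxj1 led at a log2 FPKM of 7.67, followed by Cfap126 at 6.47, Rsph1 at 6.26 and Cfap20 at 6.02. Dnah5 stood at 3.57, Dnah9 at 2.54 and Dnah11 at 0.96 on the same scale. In Pparg knockout male replicate 4 Foxj1 again led, at 5.46, but the broadly expressed Cfap36 came next at 5.37 and Rsph1 and Cfap65 both stood at 4.38.

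Some markers of other cell types moved with these genes, and their part in the results was not tested. Of 17 listed genes of female reproductive tract epithelium, 12 were highest among females in control female replicate 1, against 18.3% of all genes tested. The 17 summed to 6932 CPM there, against 43.5 to 441 CPM in the other females. Ovgp1, the secreted oviduct glycoprotein, was 4611 CPM there and between 2.22 and 4.98 CPM in the other females. Pax8, a transcription factor of tract epithelium, was 62.4 CPM there and at most 0.233 CPM in the other females. Ltf, lactoferrin, was 904 CPM and the epithelial adhesion gene Epcam 148 CPM in that library. Some genes of this list were also high where the axoneme genes were low. In Pparg knockout female replicate 3, with Foxj1 at 0.191 CPM, Krt7 was 147 CPM and Cldn4 34.8 CPM. Both lay above control female replicate 1, at 97.4 and 21.2 CPM. Of 9 mature adipocyte genes none was highest in control female replicate 1, and their sum was 9330 CPM against 21018 to 46908 CPM in the other females. Adipoq, the adipocyte hormone adiponectin, was 656 CPM there and 1694 to 3984 CPM in the others. Epididymis genes summed to 0.925 CPM and testis germ cell genes to 7.45 CPM in that library, within the range of the other females. Of 11 airway genes 5 were highest there, against the same 18.3% of all genes, and Scgb3a2 was among the 5 at only 0.0578 CPM. Scgb1a1, the marker of airway club cells, was also at 0.0578 CPM. Of the lung surfactant protein genes on that list, Sftpd was 21.6 CPM there and at most 0.146 CPM in the other females. Sftpc was 3.24 CPM there and at most 0.0752 CPM in the others. The surfactant genes Sftpb and Sftpa1 were not highest there. Sftpb was 0.116 CPM there and up to 0.208 CPM in the others, and Sftpa1 0.0578 and up to 0.0956 CPM. Cyp2f2, also on the airway list, was 119 CPM there but 352 CPM in control female replicate 2. In bulk tissue a difference in the number of cells of a type and a difference in RNA per cell cannot be told apart.

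In males Pax8 was above 5 CPM in the same 7 libraries that were high in Foxj1, from 6.19 to 55.6 CPM, and at most 0.327 CPM in the other 5. This limit was set after the values were seen, and the 7 libraries are not a group of the study. They were 2 of 4 control, 2 of 4 Pparg knockout and 3 of 4 Tbet knockout males, and 5 of the 6 males of batch 2 but 2 of the 6 of batch 1. For 32 of the 53 restricted genes all 7 libraries lay above all 5 others, against 4.21% of all genes tested, and for none of the 6 broadly expressed ones. Some of the 32, such as Rsph14 and Cfap73, met the count minimum only in libraries with Pax8 above 5 CPM. Foxj1, which marks the same split, is also among them. The count was thus partly set by how the genes were chosen. Of the 17 tract epithelium genes, 9 lay higher in all 7 than in all 5, against 4.21% of all genes tested. Pax8, which set the split, is among these 9. Epcam was 7.56 to 85.1 CPM in the 7 and at most 0.898 CPM in the 5. Krt7 and Muc16 did not follow the split. They were 21.5 and 8.32 CPM in control male replicate 1, of the 5, and 5.33 and 2.97 CPM in control male replicate 2, of the 7. Ovgp1 was 1.96 to 4.15 CPM in all 12 males, so this oviduct gene did not separate them. Epididymis genes had sums of 40.7 to 4052 CPM in the 7 and 21.1 to 118 CPM in the 5. Outside Tbet knockout male replicate 4, Sult1e1 made up most of each sum, at 20.8 to 116 CPM. The sums therefore do not compare the other listed epididymis genes between the 7 and the 5. The highest of these sums was that of Tbet knockout male replicate 4, which held Crisp1, a secreted epididymal protein, at 2977 CPM. Crisp1 was at most 29 CPM in the other males. Adam7, also on the epididymis list, was 796 CPM in Tbet knockout male replicate 4. It was 26.4 CPM in Pparg knockout male replicate 4 and 9.19 CPM in Tbet knockout male replicate 1. In the rest of the 7 it was at most 0.497 CPM, and in the 5 at most 2.94 CPM.

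**Figure D3:**
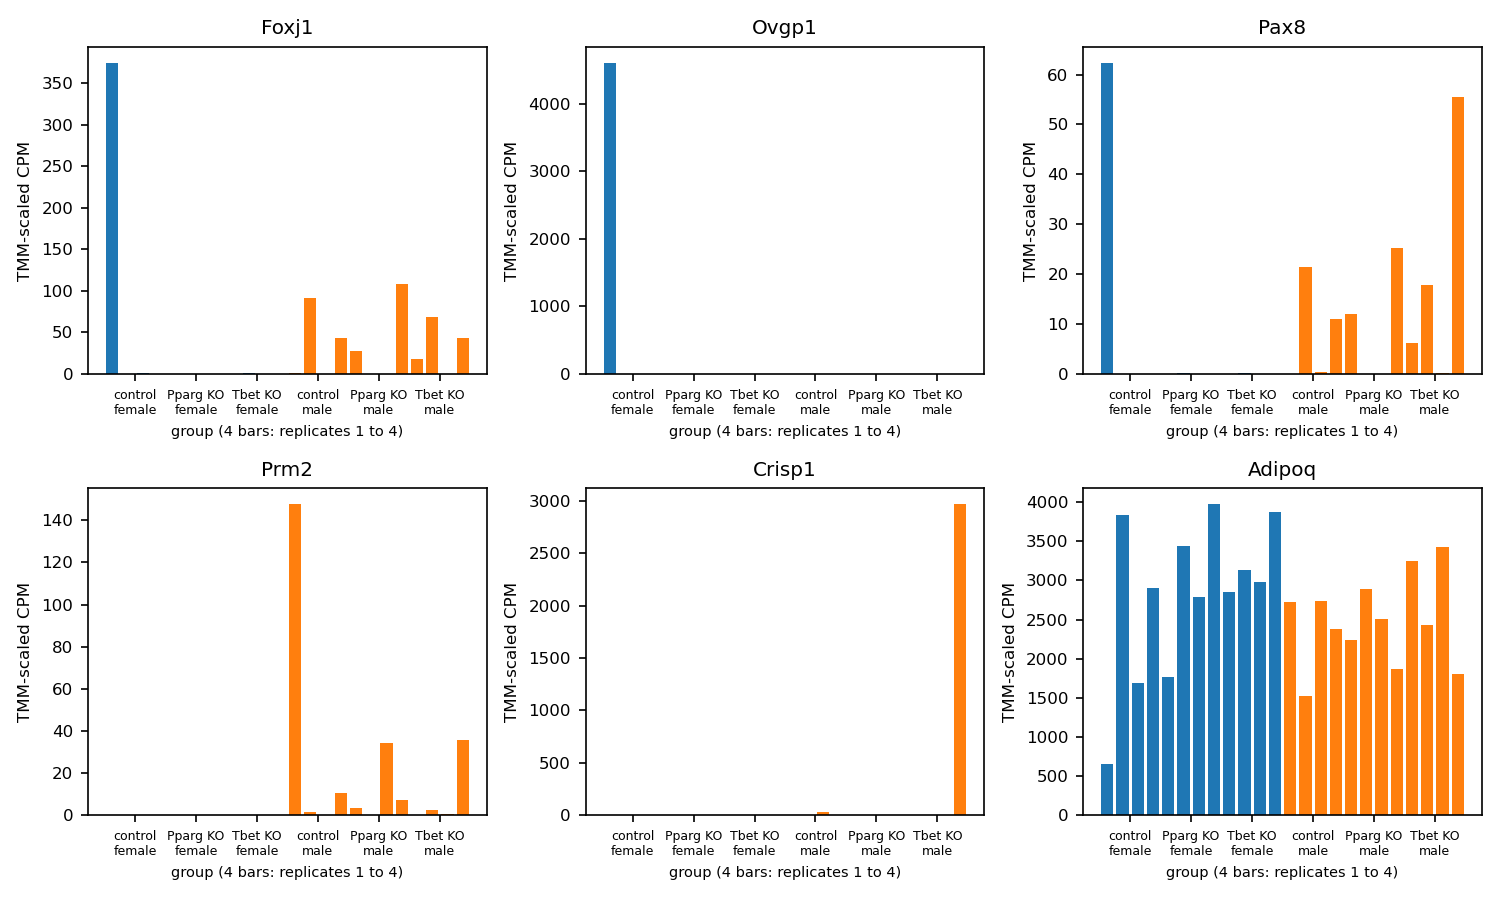
Level in TMM-scaled CPM of Foxj1 and of markers of oviduct (Ovgp1), tract epithelium (Pax8), spermatids (Prm2), epididymis (Crisp1) and adipocytes (Adipoq) in the 24 libraries, females in blue and males in orange, 4 bars per group. Ovgp1 is high in control female replicate 1 alone at 4611 CPM, Pax8 is above 5 CPM in the 8 libraries high in Foxj1, and Prm2 peaks in control male replicate 1 at 148 CPM.

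Part of the axoneme set was also present in control male replicate 1, a library with almost no Foxj1 (0.662 CPM). Genes of late male germ cells were high there. Prm2, a protamine that packs sperm DNA, was 148 CPM in it, 34.3 CPM in Pparg knockout male replicate 3 and at most 0.236 CPM in the other 3 males low in Foxj1. Among the 7 males high in Foxj1 it reached 35.5 CPM in Tbet knockout male replicate 4 and 10.5 CPM in control male replicate 4. Of these males, Tbet knockout male replicate 4 had the highest sum of testis germ cell genes, 137 CPM, against 761 CPM in control male replicate 1 and 131 CPM in Pparg knockout male replicate 3. Tnp2, a spermatid transition protein, was 162 CPM in control male replicate 1. Of the 53 restricted axoneme genes, 34 were highest in control male replicate 1 among these 5 libraries, against 17.6% of all genes tested. For 27 of the 34 Pparg knockout male replicate 3 came next, an order that 6.5% of all genes tested had. Rsph1 was 18.1 CPM in the first and 5.38 CPM in the second, and at most 0.567 CPM in the other 3. Cfap206, which docks a radial spoke, was 8.03 and 3.87 CPM and had no count in the other 3. Dnah8 was 7.47 and 2.5 CPM against at most 1.88 CPM, and Dnah17 was 6.81 and 5.84 CPM against at most 4.02 CPM. Spag6l was 3.4 and 2.92 CPM against at most 0.14 CPM. By contrast Rsph4a stood at 0 CPM and Dnah5 at 0.0473 CPM in control male replicate 1. Dnah9 at 0.331 CPM and Dnah11 at 0.189 CPM were counted among the 34, on 7 and 4 counts. Dnah9 was 0.303 CPM in Pparg knockout male replicate 3 and Dnah11 0.187 CPM in control male replicate 3. Some of these ranks thus rest on near ties of few counts. The single libraries control male replicate 1 and Pparg knockout male replicate 3 have no replicate, and the part of male germ cell RNA was not tested.

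The share of each gene in the axoneme set was compared between control female replicate 1 and the 7 male libraries. As a share of the summed level of the 53 restricted genes, Foxj1 made up 16.3% in the female library and 6.54% to 10.4% in the 7 males. Dnah5 made up 6.33% against 1.62% to 4.89%, Dnali1 3.94% against 1.47% to 2.69%, and Dnah7c 1.15% against 0.112% to 0.364%. Cfap65 went the other way, with 6.42% against 8.67% to 17.8%. Cfap44, a flagellar protein, made up 1.77% against 2.92% to 6.39%, Ccdc39 0.768% against 0.977% to 2.57%, and Cfap74 0.258% against 0.486% to 1.55%. The share of 12 genes was above all 7 males, that of 19 was below all 7 and that of 22 lay within their range. The summed level was 2305 CPM in the female library and 272 to 1037 CPM in the 7 males. A gene with a floor in all libraries takes a smaller share where the sum is larger. Dnah17 was counted below all 7, although its level was 3.99 CPM in the female library and 3.4 to 5.36 CPM in the 7 males. With 1 female library this is a description of that library and not of the sexes.

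**Figure D4:**
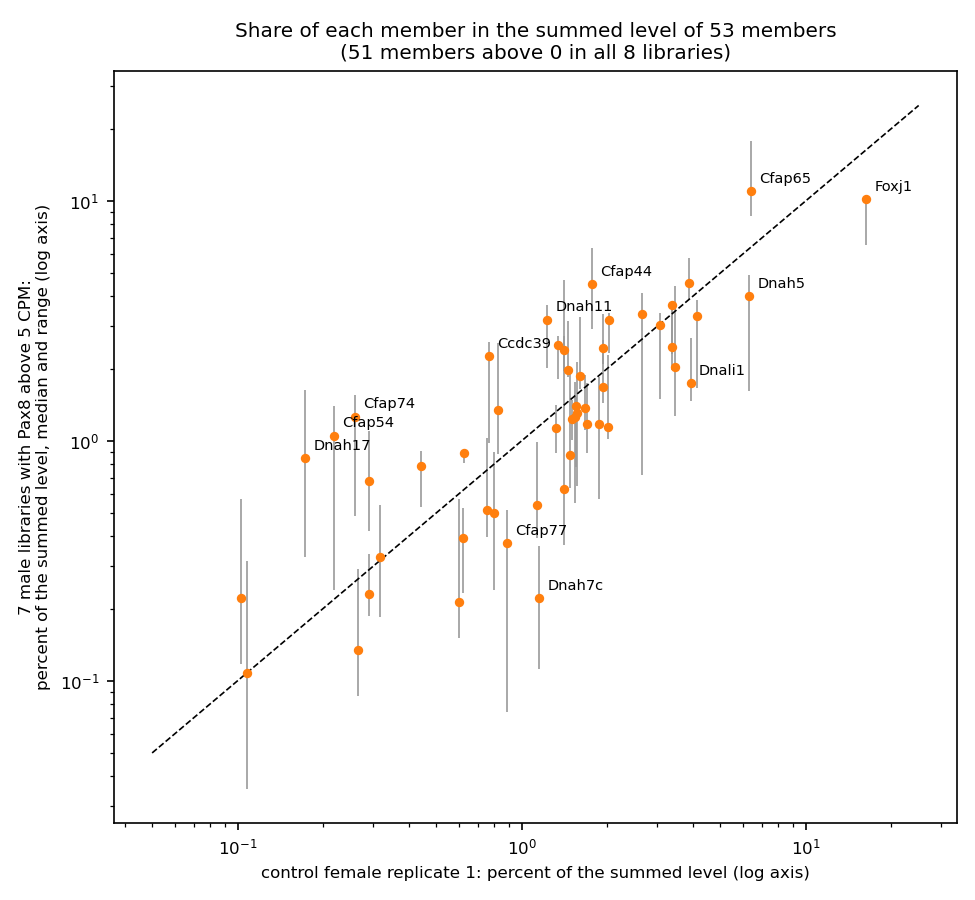
Share of each axoneme gene in the summed level of 53 such genes, in percent on log axes, in control female replicate 1 (horizontal) and in the 7 male libraries with Pax8 above 5 CPM (vertical, median with lowest and highest), for the 51 genes above 0 in all 8 libraries, with a dashed line of equality. Foxj1, Dnah7c and Cfap77 lie below the line, and Cfap65, Ccdc39, Cfap54 and Cfap74 lie above it.

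The knockouts were each compared with controls of the same sex, which asks whether loss of Pparg or T-bet in regulatory T cells goes with a change of these genes in the tissue. Of the 59 genes, 58 were tested. For Pparg in females 0 of 58 were called by edgeR's quasi-likelihood test at an adjusted p under 0.05, where 0.0168% of all genes were called. An unadjusted p under 0.05 was reached by 41 of the 58 and by 11.9% of all genes. The median log2 difference of the 58 was -3.71 against -0.02 over all genes tested, and without control female replicate 1 it was 0.05. Foxj1 averaged 94 ± 187 CPM in control females and 0.269 ± 0.104 CPM with the Pparg knockout (SD, n = 4 each), with a log2 difference of -9.78 (SE 3.03, edgeR adjusted p = 0.298). Of the 4 controls, replicate 1 alone was above 0.724 CPM. DESeq2 called 23 of the 58, all lower, where it called 2.06% of all genes. Limma on the deposited log2 FPKM called 0 of 56. In batch 2 alone, which holds no control female replicate 1, edgeR gave Foxj1 a log2 difference of 1.57 in place of -9.78. That value rests on 1 and 4 counts in the controls and 11 and 6 counts with the knockout.

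For Tbet in females 1 of 58 was called, Ttc25, where 1.22% of all genes were called, and 40 reached an unadjusted p under 0.05, as did 17.3% of all genes. The median log2 difference of the 58 was -3.43, against -0.04 over all genes. DESeq2 called 29 of the 58, all lower, where it called 6.95% of all genes. Without control female replicate 1 no gene of the set was called by edgeR and the median was 0.31. Both knockouts share the same 4 control females, so the 2 sets of values are not independent. In males 0 of 58 were called for Pparg, where 0% of all genes were called, and 0 of 58 for Tbet, where 0.00561% were. None reached an unadjusted p under 0.05 in either, where 2.55% and 4.38% of all genes did. DESeq2 and limma on the log2 FPKM called 0 in both, where DESeq2 called 0.00561% and 0.112% of all genes. The median log2 differences were 0.08 and 0.11. With a library left out they ranged from -1.03 (without Pparg knockout male replicate 4) to 0.73 for Pparg and from -0.17 to 0.69 for Tbet, the highest without control male replicate 2 in both, so their sign depended on single libraries. The Foxj1 mean was 33.8 ± 43.4 CPM for control males, 34.1 ± 51.1 CPM for Pparg knockout males and 32.7 ± 30.1 CPM for Tbet knockout males (SD, n = 4 each). The log2 difference of Foxj1 was 0.63 (SE 1.95) for Pparg and 0.39 (SE 1.89) for Tbet, so an SE of this size could hide a large difference.

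Ttc25, a part of the complex that docks the outer dynein arm, was the only axoneme gene that edgeR called in a knockout comparison. Its levels were 46.3, 5.79, 7.52 and 9.18 CPM in control females, then 3.89, 5.26, 10.9 and 3.3 CPM with the Pparg knockout and 0.784, 2.33, 1.68 and 2.12 CPM in Tbet knockout females. All 4 Tbet knockout females lay below all 4 controls, with and without control female replicate 1. The log2 difference was -3.54 (SE 0.86, edgeR adjusted p = 0.047). It was -2.08 without control female replicate 1, and the call was lost (edgeR adjusted p = 0.162). The call was also lost without control female replicate 3 or 4 and without any 1 of the 4 Tbet knockout females. Ttc25 lies on chromosome 11 at 100545608 to 100572566, and 17607 bases from it lies Acly, the gene of ATP citrate lyase, which makes acetyl-CoA for fat synthesis. Acly was 1686, 3085, 3143 and 4962 CPM in control females, then 1555, 1282, 3829 and 1542 CPM with the Pparg knockout and 223, 307, 235 and 591 CPM in Tbet knockout females. The coding gene Cnp, which lies nearer, at 2342 bases, was 26.4 to 29.3 CPM in control females 2 to 4 and 34.1 to 42.8 CPM in Tbet knockout females. In the 11 females other than control replicate 1 the Tbet knockout females were lowest in both genes. Whether reads or transcripts of Acly reach Ttc25 was not tested.

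**Figure D5:**
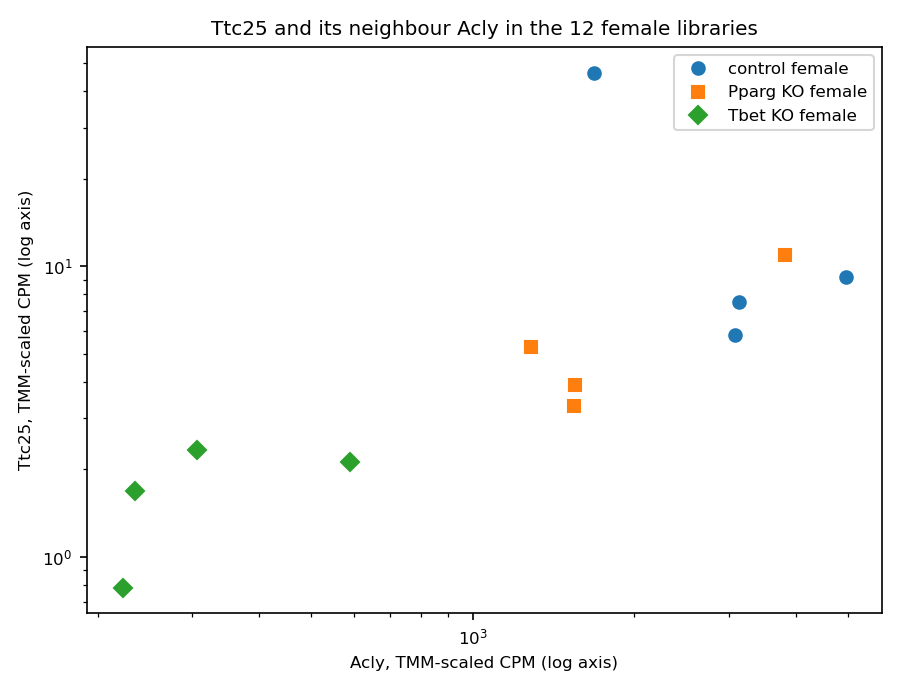
Level of Ttc25 against that of its neighbour Acly in the 12 female libraries, both in TMM-scaled CPM on log axes, 1 point per library. The 4 Tbet knockout females sit lowest on both axes, at 0.784 to 2.33 CPM of Ttc25, and control female replicate 1 lies far above the rest at 46.3 CPM.

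Males were compared with females within each genotype. Between control males and control females 2 of 58 were called, where 27.2% of all genes were, and both were broadly expressed genes. DESeq2 called 4, where it called 33.3% of all genes. Rsph3a, a radial spoke stalk protein with a near-identical copy, Rsph3b, averaged 20.4 ± 1.69 CPM in males and 28.1 ± 5.22 CPM in females (SD, n = 4 each). It fell by 0.46 on the log2 scale (SE 0.12, edgeR adjusted p = 0.0103). Cfap36 averaged 59.9 ± 7.71 CPM in males and 47.6 ± 10.5 CPM in females, a log2 difference of 0.35 (SE 0.13, edgeR adjusted p = 0.047). Cfap36 overlaps Ppp4r3b. Its call was lost with RLE scaling (edgeR adjusted p = 0.0522), with no filter on low counts, with no batch term (edgeR adjusted p = 0.226), with the replicate block (edgeR adjusted p = 0.0509), within each batch and with limma on log2 FPKM. It was also lost without control female replicate 3 or 4 or control male replicate 1, 2 or 3. The call of Rsph3a was lost in batch 1 alone (edgeR adjusted p = 0.157) and without the 8 libraries with Pax8 above 5 CPM (edgeR adjusted p = 0.332). Foxj1 had a log2 difference of -3.38 (SE 2.47, edgeR adjusted p = 0.324). Within batch 1 it was -8.97 and within batch 2 it was 9.36, so the direction did not hold within batches. Without control female replicate 1 it was 5.58, and 21 of 59 genes were called, 20 of them higher in males, where 23.8% of all genes were called. Without control female replicate 2, 5 of 59 were called (29.1% of all genes), and without replicate 4, 4 were (24.7%). Without control female replicate 3 or control male replicate 1, 2 or 3 a single gene was called.

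Between Pparg knockout males and females 0 of 58 were called by edgeR, where 8.77% of all genes were. The median log2 difference was 2.42 against 0.01 over all genes tested, 20 reached an unadjusted p under 0.05, where 26.5% of all genes did, and DESeq2 called 15, all higher in males, where it called 15.7% of all genes. Between Tbet knockout males and females 0 of 58 were called by edgeR, where 9.31% of all genes were, with a median of 2.01 against 0.03, 18 at an unadjusted p under 0.05, where 25.9% of all genes were, and 12 called by DESeq2, where it called 15.3% of all genes. Without Pparg knockout male replicate 4 the first median was 1.08. The second lay between 1.8 and 2.54 when a library was left out. Of the 58, 53 had a positive difference in each of these comparisons. Without the 8 libraries with Pax8 above 5 CPM, 0 were called between Pparg knockout males and females, where 4.32% of all genes were. Between Tbet knockout males and females 2 were then called, both lower in males, where 5% of all genes were, with a single male library whose spread is assumed to equal that of the other groups. The effects of the knockouts were also compared between the sexes. Of the 58, 0 differed for Pparg, where 0% of all genes did, with 29 at an unadjusted p under 0.05 against 6.14% of all genes. For Tbet 0 differed, where 0.00561% of all genes did, with 25 at an unadjusted p under 0.05 against 11.5% of all genes. Without control female replicate 1 the median differences between the sexes were 0.1 and -0.11. DESeq2 called 2 and 6, where it called 0.348% and 1.3% of all genes.

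Other genes of motile cilia, from a list of 61 outside the symbol rule, went the same way. The list was made by hand with earlier results of these data known. Of the 61, 59 were highest among females in control female replicate 1, against 18.3% of all genes tested. For 26 of them all 7 males with Pax8 above 5 CPM lay above all 5 others, against 4.21% of all genes tested. Their sum was 2405 CPM in control female replicate 1, 178 to 300 CPM in the other females, 360 to 804 CPM in the 7 males and 166 to 324 CPM in the 5. Ccdc153, a gene of multiciliated cells, was 214 CPM in control female replicate 1 and at most 0.467 CPM in the other females. Tmem212, another such gene, was 89.4 CPM there and at most 0.11 CPM in the other females. Meig1, which is needed to build the sperm tail, was 11.4 CPM there but 24 CPM in control male replicate 1. Of 59 of these genes tested, 1 was called in the comparison of Tbet knockout and control females, where 1.22% of all genes were called. It was Tppp3, a tubulin polymerization protein, with a log2 difference of -1.13 (SE 0.23, edgeR adjusted p = 0.0255). Tppp3 was 232, 68, 110 and 81.7 CPM in control females 1 to 4. In Tbet knockout females it was 41.8 to 69.9 CPM, so the groups overlapped. Its dependence on control female replicate 1 was not tested. None of the 59 was called by edgeR in the other 3 knockout comparisons. In these, 41 reached an unadjusted p under 0.05 for Pparg in females, against 11.9% of all genes, and 0 did in males. Of 30 genes of cilium assembly, which primary cilia also use, none was called by edgeR in a knockout comparison. Their sum was 1307 CPM in control female replicate 1, 691 to 814 CPM in the other females and 629 to 924 CPM in males.

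In the 11 females other than control replicate 1, of which 5 were batch 1 and 6 batch 2, a few axoneme genes differed between the batches without overlap. Dnah5 was 2.82 to 7.93 CPM in batch 1 and 0.194 to 2.26 CPM in batch 2. Rsph9, a spoke head protein, was also higher in batch 1 without overlap. Cfap36, Cfap54 and Dnah12 were lower in batch 1 without overlap, Cfap36 at 32.2 to 44.2 CPM against 52.7 to 61.1 CPM. That is 2 of 58 higher and 3 lower, shares below the 13.6% of all genes tested that were higher and the 13% that were lower. Emx2, a transcription factor of the reproductive tract, was 26.9 to 74.2 CPM in batch 1 and 8.79 to 23.4 CPM in batch 2 in these females. Msx1, on the same list of tract genes, was 5.24 to 11.4 CPM in batch 1 and 1.23 to 3.46 CPM in batch 2. The other genes of that list, among them Pax8, Epcam, Krt8 and Ovgp1, overlapped between the batches. The part of tissue composition in these batch differences was not tested.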

How the data were processed

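Total RNA of visceral fat was sequenced in 24 libraries of 8345575 to 31022845 counts. The authors deposited raw counts for 27179 genes, made with featureCounts on GRCm38 or mm10 per the submitters' processing notes. The authors also deposited log2 FPKM tables of 15764 genes. Their scaling is not stated, and 21 of 24 libraries share their highest value with another, so they served 1 alternative test and comparisons between genes. Which aligner, annotation and versions were used is not given in the sources used here.

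Counts were tested in R 4.3.3 with edgeR 4.0.16 (robust quasi-likelihood, filterByExpr by group, TMM). The fit held all 24 libraries, 6 groups and batch as a covariate. P-values were adjusted by Benjamini-Hochberg over 17824 genes in 9 comparisons and called under 0.05. Of the genes, 1029 had no symbol and stayed in the tests unnamed. Structural classes and gene lists were assigned by hand. The members and lists were chosen with earlier results of these data known. Named genes were Foxj1, Ttc25, Ccdc39, Ccdc40, Spag6l, Dnali1, the 3 highest of each structural class, called genes and those at the count minimum. Further genes were chosen after their values were seen. DESeq2 1.42.0 and limma 3.58.1 served as alternatives. Positions and promoters come from RefSeq, GRCm38.p6, which gave positions for 58 of the 59 genes.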

Additional observations from a re-analysis of the deposited data

Results flagged for a closer look

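In control females the highest or lowest library stood apart from the other 3 for 48 of the 59 axoneme genes, by Dixon's ratio of gap to range above its limit for 4 libraries. For values with a normal distribution, chance alone gives this in about 1 of 20 groups. Some genes were flagged from very few counts, such as Rsph6a, with 2 counts in control female replicate 2 and 0 in the other controls. The numbers of flagged genes therefore cannot be read against that share. The ratio was 0.981 for the summed level of the 53 restricted genes, 0.998 for Foxj1 and 0.916 for Ttc25, in each case for control female replicate 1.

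A library stood apart in the same way for 17 genes in Pparg knockout males, 10 in Tbet knockout females, 4 in Pparg knockout females, 3 in control males and 4 in Tbet knockout males. The genes of a library are not independent of each other. The share of all genes flagged by this rule was not computed. The numbers flagged in the 6 groups are therefore not a result about the axoneme genes.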

How the results depend on the processing

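For Tbet knockout against control females the call of Ttc25 was lost (0 called) with no filter on low counts, no batch term, the batch of the source name, the replicate block, batch 1 alone, batch 2 alone and without the 8 libraries with Pax8 above 5 CPM. Leaving out a library gave 0 to 1. It was kept only without control female replicate 2 among the libraries of these 2 groups. DESeq2 called 29, and 23 for Pparg knockout against control females.

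For control males against control females 1 gene was called with RLE scaling, no filter, no batch term, the replicate block or limma on log2 FPKM, 4 with DESeq2, 8 (all lower in males) in batch 1 alone, where 32.5% of all genes were, and 8 (5 higher, 3 lower) without the 8 Pax8 libraries, where 25% of all genes were. Leaving out a library gave 1 to 21. Each other comparison gave 0 when any library was left out. Pparg knockout males against females gave 1 with the source name's batch or the replicate block, 2 with limma and 15 with DESeq2. Tbet knockout males against females gave 2 with the source name's batch, in batch 2 alone, with limma or without the 8 libraries, and 12 with DESeq2. The differences between sexes gave 2 for Pparg and 6 for Tbet with DESeq2. Where no share of all genes is given for a setting, its count is not a result about the axoneme genes. The cause was not tested.

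Each female library of batch 2 held only 1 to 11 counts of Foxj1. The log2 difference of Foxj1 changed sign to 1.57 (Pparg, females), 2.69 (Tbet, females) and 9.36 (control males against females) in batch 2 alone. Between control males and females it became 1.63 with limma and ranged from -4.36 to 5.58 when a library was left out, being positive only without control female replicate 1. Without the 8 libraries it was 0.24 for Tbet in females, 0.24 for control males against females, -0.02 for Pparg knockout males against females and -6.1 for Tbet knockout males against females. That exclusion leaves few libraries and was chosen after seeing the data. The fold of control female replicate 1 over the other females was 35.5 on raw library totals.

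Libraries of the same number correlated, after group means, from -0.18 to 0.7, above 0.1 in 46 of 60 pairs, and after group and batch means from -0.28 to 0.44. Because not every pair exceeded 0.1, the numbers were not taken to pair the libraries, and the replicate block changed no other count.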
